A study of Danio rerio with 12 samples.

Results

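Cytochrome P450 genes of families 1 to 4 were followed across 4 doses of bepridil in whole zebrafish larvae. The members were taken by name from the table of read counts: every gene whose name starts with cyp, a family digit from 1 to 4 and a letter. This gave 52 of 25099 listed genes, namely 4 cyp1, 9 cyp2aa, 10 cyp2k, 20 other cyp2, 5 cyp3 and 4 cyp4 genes. The larvae were of the AB strain in every group and were collected at 120 hours post fertilization. Bepridil, which blocks calcium channels and was once prescribed for angina, was given at 250, 750 or 1295 ng/mL, or at 0 ng/mL (the control). Each of the 12 libraries was made from the RNA of 15 pooled larvae, with 3 libraries per dose. Neither the start of the exposure nor the clutch of origin of a pool is in the labels, so the p-values speak only for the variation among these pools, and part of it may be technical. The labels also do not say whether the 0 ng/mL group received the solvent of the drug. In pooled whole larvae, fewer cells of a type and less RNA per cell cannot be told apart.

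P450 enzymes are heme proteins that insert an oxygen atom into their substrate, with electrons passed on by the reductase Por. In vertebrates, families 1 to 3 handle many drugs and other foreign compounds, chiefly in liver and intestine, and family 4 hydroxylates fatty acids and related lipids. Genes of family 1 are classic targets of the aryl hydrocarbon receptor, and CYP3A genes are classic targets of the pregnane X receptor, the product of nr1i2. Several zebrafish subfamilies, among them cyp2k and cyp2aa, are large arrays of neighbouring copies that mammals lack in this form, so the task of most single copies is not known.

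Total counts per library ran from 15571556 to 18284169. Levels are given as CPM (counts per 1000000 counts of a library, after scaling by TMM factors), and they are compared between doses, not between genes. The TMM factors of the 3 libraries at 1295 ng/mL, 0.8308 to 0.9055, were below those of the other libraries, 1.011 to 1.075. A change was called when the adjusted p of edgeR's quasi-likelihood test, corrected over all 21581 tested genes, was under 0.05. Of the 52 members, 49 passed the filter on low counts. The other 3 held 4 counts (cyp2k22), 46 counts (cyp2x6) and 56 counts (cyp2k31) over the 12 libraries and were not tested. The lowest tested members were cyp2k20 with 209 counts and cyp4f3 with 234 counts. Changes of single genes are log2 fold changes with their standard error (SE). Many members have close paralogs beside them, among which the counting could share or split reads, so a value for a single copy is less certain than the value for its group.

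At 250 ng/mL, 21 of the 49 tested P450 genes rose and 4 fell against the control, where 6.03% of all tested genes rose and 4.48% fell. At 750 ng/mL, 19 rose and 5 fell, beside 4.2% and 2.14% of all tested genes. The median log2 fold change over the members was 0.49 at 250 ng/mL and 0.54 at 750 ng/mL, and that over all tested genes was 0.04 and 0.02. These 2 comparisons share their control libraries. Members of cyp2k, cyp3 and cyp4 and of the cyp2 genes on chromosome 20 made up most of the rises, and cyp2aa genes together with cyp2x7 made up all of the falls at both doses.

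At 1295 ng/mL the picture was mixed against the control: 12 members rose and 17 fell, where 18.8% of all tested genes rose and 22.2% fell, and the median over the members was -0.20. Set directly against 250 ng/mL, 25 members were lower and 7 higher at 1295 ng/mL, with a median of -0.60, beside 32.3% lower, 25.1% higher and a median of -0.07 over all tested genes. Set against 750 ng/mL, 26 were lower and 8 higher, with a median of -0.57, beside 28.7%, 23.4% and -0.05. Between 250 and 750 ng/mL no member differed, higher or lower, and edgeR called 0% of all tested genes in either direction. At an unadjusted p under 0.05 that comparison held 1 member and 1681 genes of all, and DESeq2 called 0 members and 5 genes of all.

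The calls against the control at 1295 ng/mL depended most on scaling and on single libraries. Scaling by total counts alone gave 3 members higher (cyp2aa6, cyp2aa9 and cyp2x7) and 23 lower, while it moved the median of all genes from -0.02 to -0.27. Of all tested genes it called 1401 higher and 8269 lower, where TMM called 4058 and 4790. Without control replicate 2 the members called were 11 higher and 8 lower. Without 1295 ng/mL replicate 1 they were 8 and 9, and without 1295 ng/mL replicate 3 they were 7 and 10. In the same fits 3797, 3403 and 3458 of all tested genes were higher, and 4510, 4122 and 4243 were lower. When any one library was left out, 31 to 32 members were called against 250 ng/mL and 31 to 35 against 750 ng/mL. Of all tested genes, 10855 to 12978 and 9599 to 11452 were called in these fits.

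**Figure D1:**
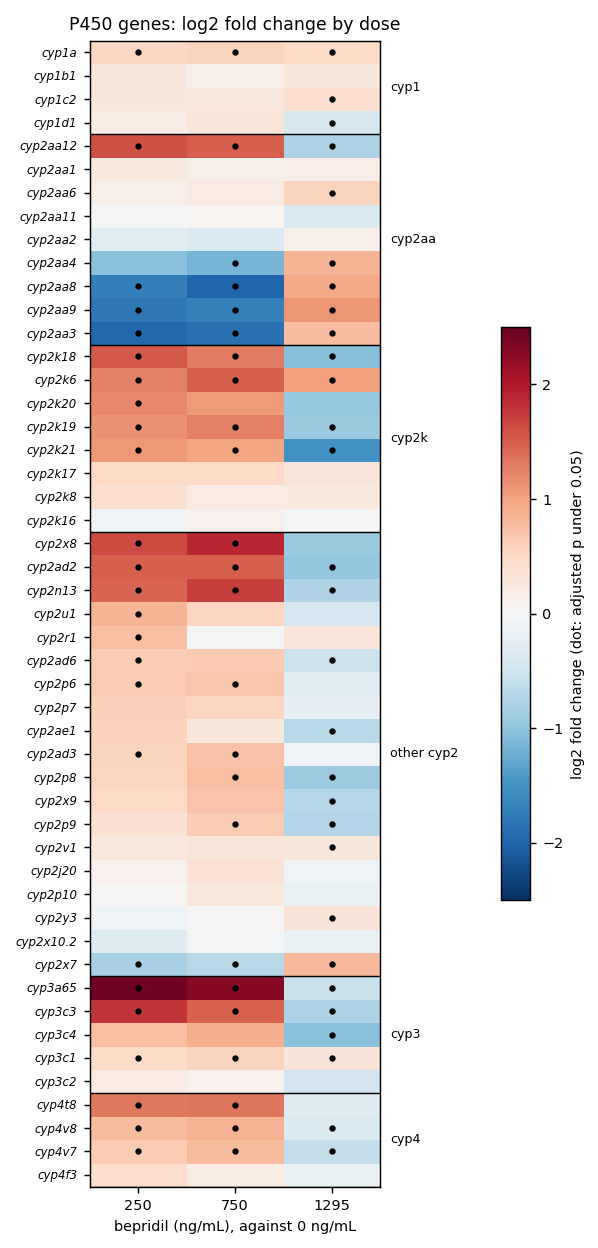
Log2 fold changes of the 49 tested P450 genes (rows, by group) against 0 ng/mL at 250, 750 and 1295 ng/mL (columns); a dot marks an adjusted p under 0.05, red is higher and blue is lower. The first and second columns are mostly of 1 colour in the cyp2k, cyp3 and cyp4 blocks. In the third column many genes turn over, with cyp3a65 going from 2.43 and 2.28 to -0.55 and cyp2aa3 from -1.96 and -1.86 to 0.78. In these blocks cyp2k6 (1.02), cyp2k17 (0.30), cyp2k8 (0.24) and cyp3c1 (0.33) stay positive there.

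The summed level of all 52 members showed the same course. It was 875 ± 136 CPM (SD, n = 3) in the control, 1360 ± 79.8 CPM at 250 ng/mL, 1380 ± 57.9 CPM at 750 ng/mL and 932 ± 22.1 CPM at 1295 ng/mL. The cyp3 sum went from 149 ± 34 CPM in the control to 424 ± 45, 398 ± 38.7 and 142 ± 5.5 CPM with rising dose, and the cyp2aa sum from 141 ± 18.3 CPM to 105 ± 18.3, 101 ± 4.88 and 216 ± 17.5 CPM. The sum of the cyp4 genes was 52.3 ± 11.7 CPM in the control and 98.2 ± 10.6, 103 ± 5.35 and 40.1 ± 1.61 CPM with rising dose. The cyp2k sum was 75.2 ± 8.76, 110 ± 9.39, 114 ± 5.54 and 68.2 ± 3.1 CPM, and that of the other cyp2 genes 390 ± 59.3, 532 ± 43, 580 ± 21.7 and 386 ± 6.33 CPM. The cyp1 sum was 67 ± 8.14, 86.3 ± 3.03, 89 ± 2.32 and 78.9 ± 2.56 CPM. No test was made of these sums, which a few well-counted genes dominate.

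**Figure D2:**
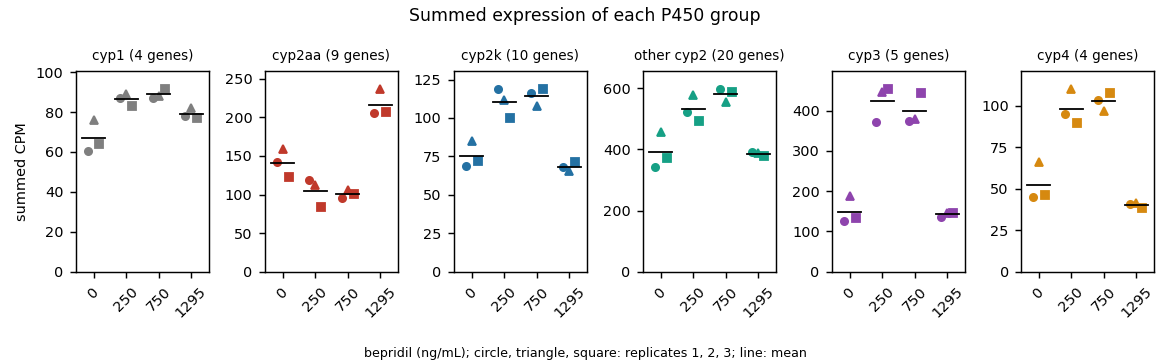
Summed CPM of each P450 group (1 panel per group) in every library by dose in ng/mL; circles, triangles and squares are replicates 1, 2 and 3 and lines are means. The cyp3 points lie near 424 and 398 CPM at the 2 lower doses and near 149 and 142 CPM at 0 and 1295 ng/mL, while the cyp2aa points are highest at 1295 ng/mL, near 216 CPM.

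In family 1, cyp1a was higher at every dose, by a similar amount. Cyp1a encodes the enzyme most used as a marker of exposure to dioxin-like compounds. Its levels were 27.2, 35.3 and 28.4 CPM at 0 ng/mL, 44.4, 43.8 and 41.9 CPM at 250 ng/mL, 45.7, 43.1 and 45 CPM at 750 ng/mL and 40.6, 46.9 and 40.4 CPM at 1295 ng/mL. Every treated library was above all 3 controls. The log2 fold changes were 0.52 ± 0.11 (adjusted p = 0.00628), 0.56 ± 0.11 (adjusted p = 0.00541) and 0.49 ± 0.11 (adjusted p = 0.002), and 1295 differed from 750 ng/mL by -0.06 ± 0.10 (adjusted p = 0.627). Under scaling by total counts alone the call at 1295 ng/mL was lost (log2 fold change 0.23).

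The other family 1 genes followed no common course. The levels of cyp1c2 were 10.9, 12.3 and 11.8 CPM at 0 ng/mL, 16.6, 12.7 and 13.4 CPM at 250 ng/mL, 13.5, 15 and 13.2 CPM at 750 ng/mL and 16.2, 15.1 and 15.3 CPM at 1295 ng/mL. Its rise passed the test at 1295 ng/mL (0.42 ± 0.12, adjusted p = 0.0116), a call that total-count scaling ended (0.16), and the lower doses gave 0.29 ± 0.12 and 0.26 ± 0.12, which did not pass. For cyp1d1, a fish gene that in zebrafish responds little to the aryl hydrocarbon receptor, the levels were 19.2, 25.2 and 19.3 CPM at 0 ng/mL, 22.3, 27.2 and 22.7 CPM at 250 ng/mL, 23, 25.8 and 30 CPM at 750 ng/mL and 16.3, 15.1 and 16.5 CPM at 1295 ng/mL. All 3 libraries at 1295 ng/mL lay below every other library, and the gene was lower at 1295 than at 750 ng/mL by a log2 fold change of -0.71 ± 0.13 (adjusted p = 0.00048). Its call against the control (-0.41 ± 0.13, adjusted p = 0.0251) was lost without any one of control replicate 2 or 1295 ng/mL replicate 1 or 2 (-0.27 to -0.42). For cyp1b1, whose mammalian counterpart metabolises steroids and retinoids outside the liver, no comparison passed: its means were 3.83 ± 0.779, 4.71 ± 0.972, 4.24 ± 0.78 and 4.69 ± 0.0791 CPM with rising dose.

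In family 3, cyp3a65 had the largest positive fold change of any member at 250 and at 750 ng/mL. It is the zebrafish counterpart of the human drug-metabolising CYP3A enzymes and is expressed in the larval liver and intestine. Its levels were 38.7, 64.3 and 36.7 CPM at 0 ng/mL, 206, 266 and 278 CPM at 250 ng/mL, 204, 220 and 254 CPM at 750 ng/mL and 29.7, 33.2 and 32.6 CPM at 1295 ng/mL. All 6 libraries at 250 and 750 ng/mL were far above all 6 libraries at 0 and 1295 ng/mL, with no overlap. It rose 5.37-fold at 250 ng/mL (log2 2.43 ± 0.18, adjusted p = 7.67e-06) and 4.85-fold at 750 ng/mL (log2 2.28 ± 0.18, adjusted p = 3.92e-05), and from 750 to 1295 ng/mL it fell by a log2 fold change of -2.83 ± 0.19 (adjusted p = 1.8e-07). At 1295 ng/mL it was lower than the control by a log2 fold change of -0.55 ± 0.18 (adjusted p = 0.025), and this last call was lost without any one of control replicate 2 or 1295 ng/mL replicate 1, 2 or 3 (-0.25 to -0.57).

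The cyp3c array on chromosome 3, which zebrafish have in addition to cyp3a65 on chromosome 1, was split. The levels of cyp3c3 were 12.9, 18.9 and 14.7 CPM at 0 ng/mL, 45.2, 49.8 and 65.2 CPM at 250 ng/mL, 40.8, 36.6 and 51.5 CPM at 750 ng/mL and 9.16, 8.56 and 9.27 CPM at 1295 ng/mL. Like cyp3a65 it was high in all libraries of the 2 lower doses and lowest at 1295 ng/mL, with log2 fold changes of 1.78 ± 0.17 (adjusted p = 4.11e-05), 1.47 ± 0.17 (adjusted p = 0.000254) and -0.78 ± 0.18 (adjusted p = 0.00301) against the control. The levels of cyp3c4 were 5.09, 13.4 and 6.65 CPM at 0 ng/mL, 14.4, 15.8 and 12.1 CPM at 250 ng/mL, 17.1, 13.6 and 16.1 CPM at 750 ng/mL and 3.1, 4.48 and 4.57 CPM at 1295 ng/mL. Its values at 250 and 750 ng/mL were 0.75 ± 0.26 and 0.90 ± 0.26 on the log2 scale and did not pass (adjusted p = 0.0767 and 0.0509), and 1295 ng/mL was lower than 750 ng/mL by a log2 fold change of -1.95 ± 0.28 (adjusted p = 5.59e-05). Its call against the control at 1295 ng/mL (-1.04, adjusted p = 0.01) was lost without control replicate 2 (-0.54).

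By contrast, cyp3c1 was higher than the control at every dose. Its levels were 67.8, 88.7 and 73.1 CPM at 0 ng/mL, 105, 112 and 96.7 CPM at 250 ng/mL, 110, 107 and 119 CPM at 750 ng/mL and 92.3, 98 and 97.8 CPM at 1295 ng/mL. Every treated library was above the 3 controls, those at 1295 ng/mL lay below those at 750 ng/mL, and no direct comparison between the bepridil doses passed. The log2 fold changes were 0.45 ± 0.10 (adjusted p = 0.0117), 0.55 ± 0.10 (adjusted p = 0.00482) and 0.33 ± 0.10 (adjusted p = 0.0185). The first was lost without any one of control replicate 1 or 250 ng/mL replicate 2 (0.37 to 0.39), and the last without any one of control replicate 1 or 3 or 1295 ng/mL replicate 3 (0.25 to 0.31) and under total-count scaling (0.07). For cyp3c2, which was counted at 1.75 ± 0.605 CPM in the control, no comparison passed, with log2 fold changes of 0.20 ± 0.33, 0.10 ± 0.33 and -0.47 ± 0.35.

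**Figure D3:**
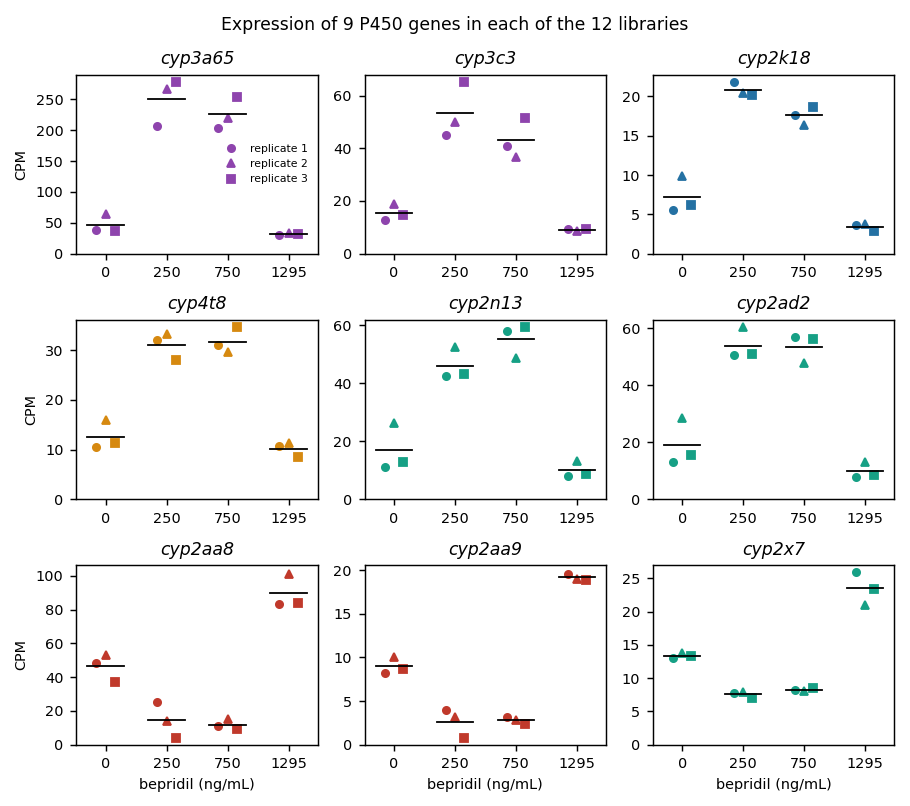
CPM of 9 P450 genes in each library by dose in ng/mL; circles, triangles and squares are replicates 1, 2 and 3 and lines are group means. Cyp3a65, with 206 to 278 CPM at 250 ng/mL and 29.7 to 33.2 CPM at 1295 ng/mL, and cyp2aa8, with 3.69 to 25.4 CPM at 250 ng/mL and 83.3 to 101 CPM at 1295 ng/mL, run in opposite directions.

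Among the 8 tested cyp2k genes, 5 rose and none fell at 250 ng/mL, 4 rose and none fell at 750 ng/mL, and 1 rose and 3 fell at 1295 ng/mL. The rises at the lower doses were 62.5% and 50%, beside 6.03% and 4.2% of all tested genes. At 1295 ng/mL 12.5% rose and 37.5% fell, beside 18.8% and 22.2% of all tested genes. Most of these fish enzymes have no known substrate, and that of cyp2k6 can activate aflatoxin. The levels of cyp2k18 were 5.54, 9.89 and 6.2 CPM at 0 ng/mL, 21.8, 20.4 and 20.2 CPM at 250 ng/mL, 17.6, 16.4 and 18.6 CPM at 750 ng/mL and 3.65, 3.75 and 2.84 CPM at 1295 ng/mL. The groups at 250 and 750 ng/mL did not overlap with the control or with 1295 ng/mL, and the log2 fold changes were 1.53 ± 0.17 (adjusted p = 0.000105), 1.29 ± 0.17 (adjusted p = 0.000725) and -1.07 ± 0.20 (adjusted p = 0.000761). The levels of cyp2k19 were 8.63, 11.5 and 10.5 CPM at 0 ng/mL, 27.6, 22.8 and 17.9 CPM at 250 ng/mL, 25.5, 20.5 and 26.9 CPM at 750 ng/mL and 4.02, 6.98 and 5.13 CPM at 1295 ng/mL. It followed the same course, at 1.15 ± 0.19, 1.25 ± 0.19 and -0.93 ± 0.21 on the log2 scale, all called. Cyp2k21 was counted at lower CPM and gave 1.08 ± 0.18, 0.98 ± 0.18 and -1.52 ± 0.23, all called, the last being the largest fall of any member at 1295 ng/mL. From 750 to 1295 ng/mL the log2 fold change was -2.36 ± 0.19 for cyp2k18, -2.18 ± 0.20 for cyp2k19, -2.5 ± 0.22 for cyp2k21 and -2.01 ± 0.43 for cyp2k20.

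The other 4 tested cyp2k genes were not called lower at 1295 than at 750 ng/mL. Cyp2k6 was higher than the control at all 3 doses. Its levels were 3.89, 3.58 and 2.37 CPM at 0 ng/mL, 5.99, 6.3 and 11 CPM at 250 ng/mL, 12.6, 8.14 and 7.06 CPM at 750 ng/mL and 8.36, 3.42 and 8.03 CPM at 1295 ng/mL. Every treated library except 1295 ng/mL replicate 2 was above the 3 controls, with log2 fold changes of 1.25 ± 0.34 (adjusted p = 0.0303), 1.5 ± 0.34 (adjusted p = 0.0146) and 1.02 ± 0.35 (adjusted p = 0.0285). The calls were lost, at 250 ng/mL, without any one of control replicate 1, 2 or 3 or 250 ng/mL replicate 3 (0.91 to 1.39), at 750 ng/mL without any one of control replicate 3 or 750 ng/mL replicate 1 (1.21 to 1.31), and at 1295 ng/mL without any one of control replicate 3 or 1295 ng/mL replicate 1 or 3 (0.81 to 0.85), under limma-voom (0.95) and under total-count scaling (0.78). The levels of cyp2k8 were 5.54, 6.67 and 6.03 CPM at 0 ng/mL, 8.14, 7.17 and 8.9 CPM at 250 ng/mL, 6.74, 6.71 and 7.67 CPM at 750 ng/mL and 6.93, 6.32 and 8.22 CPM at 1295 ng/mL, and none of its comparisons passed. Cyp2k16 and cyp2k17 passed in no comparison either, with log2 fold changes between -0.10 and 0.50 against the control. At 250 ng/mL the call of cyp2k20 (1.2 ± 0.37, adjusted p = 0.0481) was lost without any one of control replicate 1, 2 or 3, 250 ng/mL replicate 1, 2 or 3, 750 ng/mL replicate 1 or 2 or 1295 ng/mL replicate 3 (1.07 to 1.38), with DESeq2 (1.17) and without the filter on low counts (1.2).

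On chromosome 20, 11 P450 genes related to mammalian CYP2J, whose enzymes oxidise arachidonic acid, follow each other in the RefSeq gene order: cyp2n13, cyp2ad6, cyp2ad2, cyp2v1, cyp2ad3, cyp2p6, cyp2p7, cyp2p8, cyp2p9, cyp2p10 and cyp2j20. Of these, 5 rose at 250 ng/mL and 6 at 750 ng/mL, and none fell at either dose. Among all tested genes 6.03% rose and 4.48% fell at 250 ng/mL, and 4.2% and 2.14% did at 750 ng/mL. From 750 to 1295 ng/mL 9 of the 11 were called lower and none higher. Over all 11 genes the log2 fold changes ran from -2.48 to -0.03, the last in cyp2v1, which was not called. The call of cyp2p10 (-0.44) was lost without any one of 750 ng/mL replicate 3 or 1295 ng/mL replicate 2 (-0.33 to -0.26). That of cyp2p7 (-0.75) was lost with DESeq2 and without any one of 750 or 1295 ng/mL replicates 1 or 2 (-0.61 to -0.75). In that comparison 28.7% of all tested genes were lower and 23.4% higher. The largest rises at the lower doses were in cyp2n13 and cyp2ad2, at one end of the array. Cyp2ad6, which lies between them, gave only 0.64 ± 0.19 at 250 ng/mL. The levels of cyp2ad2 were 13.1, 28.4 and 15.7 CPM at 0 ng/mL, 50.6, 60.3 and 50.8 CPM at 250 ng/mL, 56.9, 47.7 and 56.3 CPM at 750 ng/mL and 7.74, 13 and 8.47 CPM at 1295 ng/mL. Those of cyp2n13 were 11.1, 26.3 and 12.8 CPM at 0 ng/mL, 42.3, 52.4 and 43.2 CPM at 250 ng/mL, 57.9, 48.7 and 59.18 CPM at 750 ng/mL and 8.11, 13 and 8.71 CPM at 1295 ng/mL. In both genes all libraries at 250 and 750 ng/mL exceeded all libraries at 0 and 1295 ng/mL. Cyp2ad2 gave 1.5 ± 0.23, 1.5 ± 0.23 and -0.97 ± 0.25 against the control, with adjusted p of 0.000913, 0.00145 and 0.00616. Cyp2n13 gave 1.46 ± 0.25 and 1.73 ± 0.25 at the lower doses, with adjusted p of 0.00189 and 0.00107, and its lower level at 1295 ng/mL (-0.75 ± 0.27, adjusted p = 0.0339) lost its call without any one of control replicate 2 or 1295 ng/mL replicate 1 or 3 (-0.27 to -0.67), with DESeq2 (-0.72), limma-voom (-0.67) and only the compared groups in the fit.

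In the other genes of the same array the rises at the lower doses were smaller. The levels of cyp2p9 were 20, 22.4 and 16.2 CPM at 0 ng/mL, 25, 29.2 and 22.3 CPM at 250 ng/mL, 29.5, 29.7 and 31.9 CPM at 750 ng/mL and 13.8, 10.4 and 10.7 CPM at 1295 ng/mL. Its libraries at 1295 ng/mL were the lowest, and it gave 0.39 ± 0.14 (adjusted p = 0.0897), 0.64 ± 0.14 (adjusted p = 0.0122) and -0.74 ± 0.15 (adjusted p = 0.0011). The call at 750 ng/mL was lost without any one of control replicate 3 or 750 ng/mL replicate 3 (0.52 to 0.56). Cyp2p6 and cyp2ad3 rose at both lower doses, cyp2p6 by 0.64 ± 0.14 and 0.70 ± 0.14, and cyp2ad3 by 0.55 ± 0.11 and 0.74 ± 0.11. Cyp2p8 rose at 750 ng/mL by 0.75 ± 0.18 and fell at 1295 ng/mL (-0.90 ± 0.20). The first of these calls was lost without any one of control replicate 1 or 3 or 750 ng/mL replicate 1 (0.56 to 0.77) and with only the compared groups in the fit (0.72). At the far end, cyp2p10 and cyp2j20 gave 0.02 ± 0.15 and 0.10 ± 0.22 at 250 ng/mL and did not pass against the control at any dose. Cyp2p7 also passed in none of the comparisons with the control (0.59 ± 0.25 at 250 ng/mL), and the call of cyp2ad6 at 250 ng/mL (0.64 ± 0.19, adjusted p = 0.0475) was lost without any one of control replicate 1, 250 ng/mL replicate 1, 2 or 3, 750 ng/mL replicate 1 or 2 or 1295 ng/mL replicate 1, 2 or 3 (0.40 to 0.68), under RLE (0.61), upper-quartile (0.63) or total-count scaling (0.64) and with only the compared groups in the fit (0.61). Cyp2v1 gave 0.26, 0.31 and 0.28 at the 3 doses, and its call at 1295 ng/mL (adjusted p = 0.0479) was lost without any one of control replicate 1 or 3, 250 ng/mL replicate 1, 750 ng/mL replicate 1 or 2 or 1295 ng/mL replicate 1, 2 or 3 (0.20 to 0.31), under total-count scaling (0.02) or upper-quartile scaling (0.28), without the filter on low counts (0.28) and with at least 10 counts asked of every library (0.26).

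The cyp2x genes next to each other on chromosome 25 went in opposite directions. The levels of cyp2x7 were 13, 13.7 and 13.3 CPM at 0 ng/mL, 7.72, 7.85 and 7.05 CPM at 250 ng/mL, 8.24, 8.02 and 8.52 CPM at 750 ng/mL and 26, 21.1 and 23.5 CPM at 1295 ng/mL. The 4 groups did not overlap: 250 and 750 ng/mL were lowest, the control lay above them and 1295 ng/mL was highest. Its log2 fold changes were -0.82 ± 0.11 at 250 ng/mL (adjusted p = 0.000434), -0.69 ± 0.11 at 750 ng/mL (adjusted p = 0.00215) and 0.82 ± 0.11 at 1295 ng/mL (adjusted p = 5.89e-05). Its neighbour cyp2x8, with a mean of 2.04 ± 1.2 CPM in the control, rose by 1.63 ± 0.40 at 250 ng/mL (adjusted p = 0.0196) and 1.89 ± 0.40 at 750 ng/mL (adjusted p = 0.0104). From 750 to 1295 ng/mL, cyp2x7 rose by 1.51 ± 0.11 and cyp2x8 fell by a log2 fold change of -2.82 ± 0.45. The rise of cyp2x8 at 250 ng/mL was lost without any one of control replicate 1 or 3 or 250 ng/mL replicate 2 (1.32 to 1.48) and with DESeq2 (1.59), and that at 750 ng/mL without control replicate 1 (1.74). Cyp2x9, the next gene, was lower at 1295 than at 750 ng/mL by a log2 fold change of -1.44 ± 0.22 (adjusted p = 7.79e-05).

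The remaining cyp2 genes were each called in some comparisons except cyp2x10.2. Cyp2r1, whose human counterpart is the vitamin D 25-hydroxylase, was called higher at 250 ng/mL (0.75 ± 0.17, adjusted p = 0.0129), gave -0.03 ± 0.18 at 750 ng/mL, and the difference between these 2 doses did not pass (-0.78 ± 0.17, adjusted p = 0.619). It was the 1 member with an unadjusted p under 0.05 in that comparison. Cyp2u1, a fatty acid hydroxylase in humans, rose at 250 ng/mL by 0.84 ± 0.19 (adjusted p = 0.0112), a call lost without control replicate 1 (0.66), and was lower at 1295 than at 250 ng/mL by a log2 fold change of -1.28 ± 0.20 (adjusted p = 7.83e-05). Cyp2y3 gave -0.10 ± 0.08 and 0.03 ± 0.08 at the lower doses and rose by 0.32 ± 0.08 at 1295 ng/mL (adjusted p = 0.00723), which total-count scaling took to 0.07. Cyp2ae1, which follows the cyp2aa genes on chromosome 23, was lower at 1295 than at 250 ng/mL by a log2 fold change of -1.28 ± 0.23 (adjusted p = 0.000238).

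The cyp2aa genes, a fish array on chromosome 23 whose substrates are largely unknown, held most of the falls at the lower doses. At 250 ng/mL 1 of the 9 rose and 3 fell, at 750 ng/mL 1 rose and 4 fell, and at 1295 ng/mL 5 rose and 1 fell, with medians of -0.26, -0.37 and 0.55. Of all tested genes 6.03% rose and 4.48% fell at 250 ng/mL, 4.2% and 2.14% at 750 ng/mL, and 18.8% and 22.2% at 1295 ng/mL. Their medians were 0.04, 0.02 and -0.02. The levels of cyp2aa3 were 11.5, 6.98 and 8 CPM at 0 ng/mL, 2.81, 2.66 and 1.4 CPM at 250 ng/mL, 1.96, 2.81 and 2.56 CPM at 750 ng/mL and 13.8, 16 and 15.9 CPM at 1295 ng/mL. Those of cyp2aa9 were 8.17, 10 and 8.73 CPM at 0 ng/mL, 3.95, 3.15 and 0.784 CPM at 250 ng/mL, 3.17, 2.81 and 2.31 CPM at 750 ng/mL and 19.6, 19 and 18.9 CPM at 1295 ng/mL. In both genes the libraries at 1295 ng/mL were the highest and those at 250 and 750 ng/mL the lowest, and the control lay between them. Cyp2aa3 gave -1.96 ± 0.24 (adjusted p = 0.000215), -1.86 ± 0.24 (adjusted p = 0.000519) and 0.78 ± 0.21 (adjusted p = 0.00726), and cyp2aa9 gave -1.78 ± 0.31 (adjusted p = 0.0023), -1.69 ± 0.31 (adjusted p = 0.00426) and 1.1 ± 0.27 (adjusted p = 0.00442). From 750 to 1295 ng/mL they rose by 2.64 ± 0.24 and 2.79 ± 0.30. With total-count scaling the rise of cyp2aa3 over the control no longer passed (0.52).

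The same direction was seen in cyp2aa8, less evenly. The levels of cyp2aa8 were 48.6, 53.2 and 37.1 CPM at 0 ng/mL, 25.4, 13.7 and 3.69 CPM at 250 ng/mL, 11.2, 14.8 and 9.13 CPM at 750 ng/mL and 83.3, 101 and 84.2 CPM at 1295 ng/mL. The 3 libraries at 250 ng/mL were spread widely, and all libraries at 1295 ng/mL were above all others. It fell at 250 ng/mL (-1.7 ± 0.39, adjusted p = 0.0131) and at 750 ng/mL (-1.98 ± 0.40, adjusted p = 0.00775), and rose from 750 to 1295 ng/mL by 2.93 ± 0.40 (adjusted p = 3.79e-05). Its call against the control at 1295 ng/mL (0.95 ± 0.37, adjusted p = 0.0496) was lost without any one of control replicate 1, 2 or 3, 250 ng/mL replicate 2, 750 ng/mL replicate 1 or 2 or 1295 ng/mL replicate 1, 2 or 3 (0.82 to 1.06), with DESeq2 (0.98), with at least 10 counts asked of every library (0.94) and under total-count scaling (0.69). Cyp2aa4 moved alike from 750 to 1295 ng/mL, by 2.01 ± 0.32 (adjusted p = 0.000143), and its fall at 750 ng/mL (-1.16 ± 0.33, adjusted p = 0.0489) was lost without any one of control replicate 1, 2 or 3, 250 ng/mL replicate 2, 750 ng/mL replicate 1 or 3 or 1295 ng/mL replicate 1 or 3 (-0.89 to -1.28), with DESeq2 (-1.18), with at least 10 counts in every library (-1.15) and with only the compared groups in the fit (-1.2). At 1295 ng/mL cyp2aa4 was called above the control (0.85 ± 0.30, adjusted p = 0.0354). That call was lost without any one of control replicate 1 or 3 or 1295 ng/mL replicate 1, 2 or 3 (0.73 to 0.91). It was also lost with DESeq2 and under total-count scaling.

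One gene of the same array, cyp2aa12, took the opposite course. Its levels were 2.91, 8.07 and 4.17 CPM at 0 ng/mL, 13.2, 16.2 and 16.2 CPM at 250 ng/mL, 12.8, 15.6 and 14.2 CPM at 750 ng/mL and 2.79, 2.7 and 3.28 CPM at 1295 ng/mL. Control replicate 2 was the highest control, all libraries at 250 and 750 ng/mL were above it, and those at 1295 ng/mL overlapped with the other controls. The gene rose at 250 ng/mL (1.6 ± 0.25, adjusted p = 0.000996) and 750 ng/mL (1.5 ± 0.25, adjusted p = 0.00233) and from there fell to 1295 ng/mL by a log2 fold change of -2.28 ± 0.27 (adjusted p = 9.2e-06). Against the control at 1295 ng/mL its value was -0.78 ± 0.29 (adjusted p = 0.0404), a call lost without any one of control replicate 2, 250 ng/mL replicate 3 or 1295 ng/mL replicate 1, 2 or 3 (-0.28 to -0.87), with limma-voom (-0.64) and with only the compared groups in the fit. Cyp2aa6 gave 0.15 ± 0.10 and 0.21 ± 0.10 at the lower doses, which did not pass, rose at 1295 ng/mL by 0.55 ± 0.10 (adjusted p = 0.000543), and was higher there than at 750 ng/mL by 0.34 ± 0.10 (adjusted p = 0.00876, 0.11 and not called under total-count scaling). The other 3 genes, cyp2aa1, cyp2aa2 and cyp2aa11, passed in no comparison with the control, with log2 fold changes between -0.37 and 0.25.

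In family 4, 3 of the 4 genes rose at both lower doses and were lower at 1295 than at 750 ng/mL. Of all tested genes 6.03% and 4.2% rose at 250 and 750 ng/mL, and 28.7% were lower at 1295 than at 750 ng/mL. The levels of cyp4t8 were 10.5, 16 and 11.3 CPM at 0 ng/mL, 32.1, 33.3 and 28 CPM at 250 ng/mL, 31, 29.6 and 34.8 CPM at 750 ng/mL and 10.8, 11.3 and 8.53 CPM at 1295 ng/mL. Every library at 250 and 750 ng/mL was above every library at 0 and 1295 ng/mL, and the log2 fold changes were 1.31 ± 0.15 (adjusted p = 0.000118) and 1.34 ± 0.15 (adjusted p = 0.000254), while -0.30 ± 0.16 at 1295 ng/mL did not pass. The human relative of the cyp4v genes, CYP4V2, hydroxylates fatty acids in the eye and is mutated in Bietti crystalline dystrophy. The levels of cyp4v8 were 27.7, 39 and 26.7 CPM at 0 ng/mL, 49.9, 62.2 and 49.7 CPM at 250 ng/mL, 57, 52.8 and 59.4 CPM at 750 ng/mL and 23.8, 25.4 and 22.9 CPM at 1295 ng/mL. Those of cyp4v7 were 6, 9.53 and 7.1 CPM at 0 ng/mL, 11.4, 13.4 and 10.2 CPM at 250 ng/mL, 14, 12.9 and 12.4 CPM at 750 ng/mL and 5.2, 3.75 and 5.87 CPM at 1295 ng/mL. In both, all libraries at 250 and 750 ng/mL were above the controls, and those at 1295 ng/mL were below them. Cyp4v8 rose by 0.79 ± 0.14 (adjusted p = 0.00189) and 0.86 ± 0.14 (adjusted p = 0.00172), and cyp4v7 by 0.63 ± 0.18 (adjusted p = 0.0376) and 0.80 ± 0.18 (adjusted p = 0.0144). From 750 to 1295 ng/mL the log2 fold changes were -1.64 ± 0.15, -1.23 ± 0.14 and -1.4 ± 0.19 for cyp4t8, cyp4v8 and cyp4v7. The call of cyp4v7 at 250 ng/mL was lost without any one of control replicate 1 or 3, 250 ng/mL replicate 1, 2 or 3 or 1295 ng/mL replicate 1 (0.49 to 0.72) and with only the compared groups in the fit (0.60), and that at 750 ng/mL without any one of control replicate 1 or 3 or 750 ng/mL replicate 1 (0.66 to 0.76). Their lower levels at 1295 ng/mL against the control were -0.37 ± 0.14 for cyp4v8 (adjusted p = 0.0431) and -0.60 ± 0.19 for cyp4v7 (adjusted p = 0.0218). The cyp4v7 call was lost without any one of control replicate 2 or 1295 ng/mL replicate 2 (-0.40 to -0.43). The cyp4v8 call was lost without any one of control replicate 2, 250 ng/mL replicate 1, 750 ng/mL replicate 1 or 2 or 1295 ng/mL replicate 1, 2 or 3 (-0.18 to -0.40), the first of these giving -0.18, and with RLE scaling (-0.34), DESeq2 (-0.34), limma-voom (-0.35) or only the compared groups in the fit (-0.37). Cyp4f3, named for a human leukotriene hydroxylase, passed in no comparison, with 0.43 ± 0.32, 0.18 ± 0.33 and -0.17 ± 0.35 against the control.

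**Figure D4:**
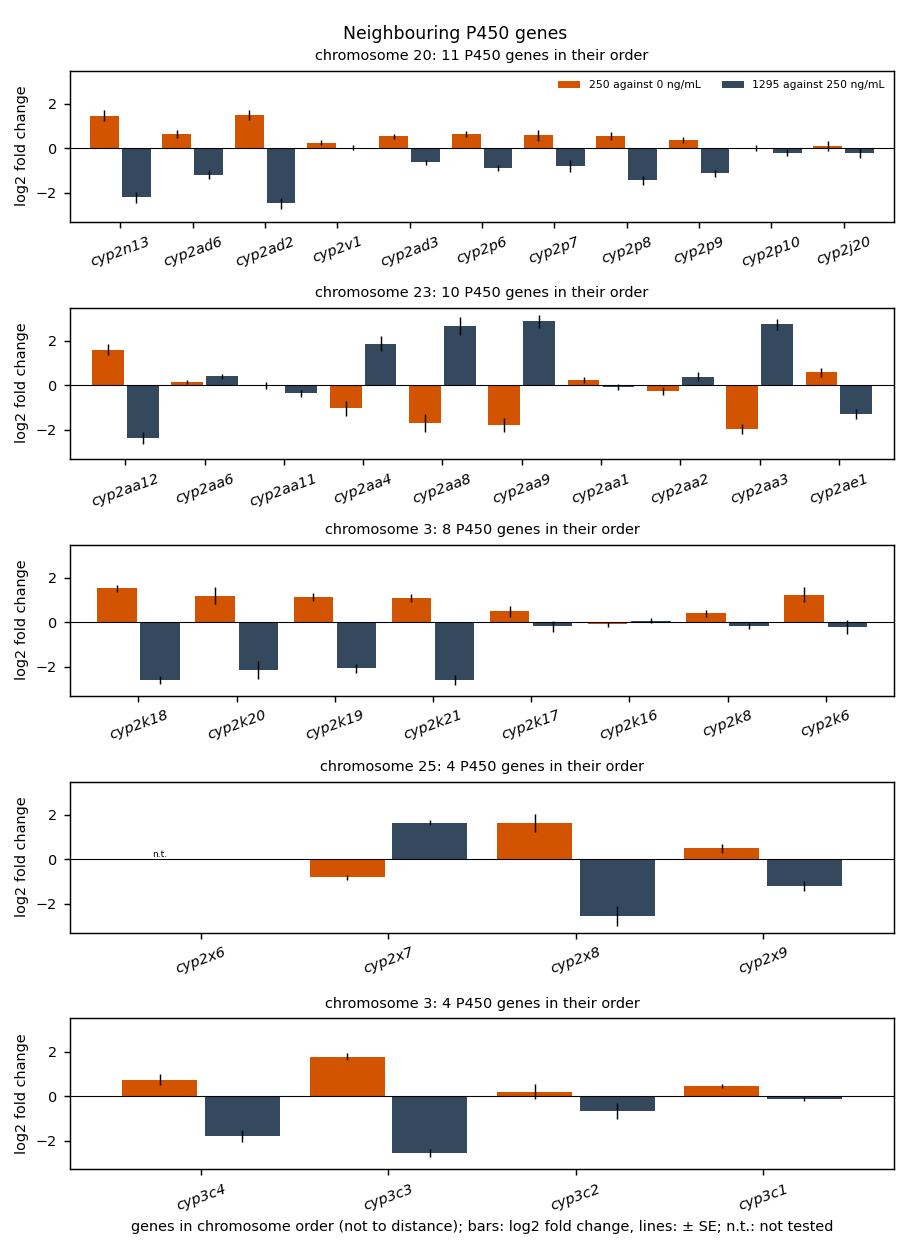
Log2 fold changes (bars, with SE as lines) of 250 against 0 ng/mL and 1295 against 250 ng/mL for P450 genes in arrays, 1 panel per array. Genes are in chromosome order and not to distance, other genes can lie between them, and n.t. marks a gene not tested. On chromosome 23 cyp2aa12 (1.6 and -2.38) stands opposite to cyp2aa3 (-1.96 and 2.74), and on chromosome 25 cyp2x7 (-0.82 and 1.64) opposite to cyp2x8 (1.63 and -2.56).

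Set out along the chromosomes, 5 arrays held 37 of the 52 members. An array here is a run of members with a step of at most 10 protein-coding genes from each to the next, so other genes can lie between. In the cyp2k array on chromosome 3 the genes that rose at 250 ng/mL and fell from there to 1295 ng/mL (cyp2k18, cyp2k20, cyp2k19 and cyp2k21) stand next to each other, followed by cyp2k17, cyp2k16, cyp2k8 and cyp2k6, of which none was called between 250 and 1295 ng/mL. In the cyp2aa array cyp2aa8 and cyp2aa9 are neighbours, and cyp2aa4 precedes them with another protein-coding gene between it and cyp2aa8. Cyp2aa3 is apart from these genes behind cyp2aa1 and cyp2aa2.

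Control replicate 2 stood above the other controls in most of these genes. It was the highest control in 37 of the 49 tested members, where it was the highest in 37.4% of all tested genes. This held for 17 of the 21 members higher at 250 ng/mL and for 3 of the 4 lower. Summed P450 levels in the 3 controls were 785, 1031 and 807.9 CPM. Exocrine pancreas markers, which were 20 genes in the table such as cpa1 and prss59.2, moved with it, at summed levels of 2013, 3917 and 2378 CPM in the 3 controls and of 1996, 4009 and 2086 CPM at 1295 ng/mL, where replicate 2 was again the highest. This was not particular to the pancreas. In the 3 controls, hepatocyte markers summed to 13870, 16490 and 14230 CPM and enterocyte markers to 10060, 11730 and 9609 CPM. Brain markers went the other way, at 2531, 1881 and 2275 CPM. Without control replicate 2, the members called were 22 higher and 4 lower at 250 ng/mL, and 22 higher and 4 lower at 750 ng/mL. Of all genes tested in that fit, 1212 were higher and 776 lower at 250 ng/mL, and 926 and 428 at 750 ng/mL. The part of these organs in the P450 values of control replicate 2 was not tested.

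Markers of the organs that carry P450 enzymes also changed with dose. Intestinal enterocyte markers rose in 20 and fell in 2 of 32 genes at 250 ng/mL, rose in 19 and fell in 1 at 750 ng/mL, and rose in 6 and fell in 19 at 1295 ng/mL. Their summed level ran from 9609 to 11730 CPM in the control, from 9857 to 13140 and from 10880 to 11170 CPM at the lower doses, and from 17150 to 17540 CPM at 1295 ng/mL, where the apolipoprotein gene apoa1a alone averaged 7820 ± 462 CPM against 3470 ± 345 CPM in the control. Hepatocyte markers rose in 8 and fell in 6 of 33 genes at 250 ng/mL, rose in 10 and fell in 4 at 750 ng/mL, and rose in 20 and fell in 2 at 1295 ng/mL. At 250 ng/mL 62.5% of the enterocyte markers rose and 6.25% fell, and 24.2% of the hepatocyte markers rose and 18.2% fell. Of all tested genes 6.03% rose and 4.48% fell. At 750 ng/mL the shares were 59.4% and 3.12%, then 30.3% and 12.1%, and 4.2% and 2.14% for all tested genes, in the same order. At 1295 ng/mL 59.4% of the enterocyte markers fell and 60.6% of the hepatocyte markers rose, where 22.2% and 18.8% of all tested genes did, and the 18.8% of enterocyte markers that rose equals the share of all genes. The summed levels of the hepatocyte markers were 13870 to 16490, 11870 to 15270, 13050 to 13710 and 23110 to 23820 CPM. At 1295 ng/mL the fibrinogen gene fga gave 1.15 ± 0.13, fgb 1.17 ± 0.12 and fgg 1.12 ± 0.12, and the enterocyte genes vil1 (villin) and chia.1 (a chitinase) gave -0.91 ± 0.11 and -1.31 ± 0.17. The gene apobb.1 stands on both lists. No enterocyte marker was at 0 in any dose group, and of the hepatocyte markers hp had no count at 1295 ng/mL. The part of these organs in the P450 values was not tested.

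Pancreas, kidney and brain markers were also followed. Exocrine pancreas markers rose in 19 of 20 genes at 250 ng/mL and in 18 at 750 ng/mL, and none passed at 1295 ng/mL. They summed to 9100 to 13690 CPM, 9244 to 10540 CPM and 1996 to 4009 CPM at the 3 doses. Kidney tubule markers rose in 3 and 2 of 16 genes at the lower doses and fell in 8 at 1295 ng/mL, with summed levels of 354.7 to 419.5, 430.7 to 463.9, 426.1 to 448.5 and 241.7 to 279 CPM. Brain markers rose in 1 and 3 of 16 genes at the lower doses and fell in 14 at 1295 ng/mL, with summed levels of 1881 to 2531, 2101 to 2126, 2140 to 2493 and 1255 to 1569 CPM. Blood vessel and heart markers fell in 1 of 16 genes at 250 ng/mL, in none at 750 ng/mL, and rose in 4 and fell in 3 at 1295 ng/mL, with summed levels of 343.2 to 381.8, 345.1 to 371.9, 336.8 to 363.9 and 359.2 to 420.5 CPM. Their shares at 1295 ng/mL, 25% higher and 18.8% lower, were near the 18.8% and 22.2% of all tested genes, while the kidney and brain falls, 50% and 87.5%, were above the latter. Of all tested genes 6.03% rose and 4.48% fell at 250 ng/mL, and 4.2% and 2.14% did at 750 ng/mL. The brain rises and the vessel and heart falls at 250 ng/mL, 6.25% each, were near these shares. Above them were the pancreas rises (95% and 90%), the kidney rises (18.8% and 12.5%) and the brain rises at 750 ng/mL (18.8%). None of these markers was at 0 in a dose group, and their part in the P450 values was not tested.

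Genes that work with P450 enzymes were counted in the same way, and their counts stand beside the shares over all tested genes, 6.03% higher and 4.48% lower at 250 ng/mL, 4.2% and 2.14% at 750 ng/mL, and 18.8% and 22.2% at 1295 ng/mL. Of 11 redox partners, 1 fell at 250 ng/mL, none passed at 750 ng/mL and 2 rose at 1295 ng/mL, a share of 18.2% that is near that of all genes. The reductase gene copy porb gave 0.25 ± 0.09, 0.24 ± 0.09 and 0.36 ± 0.09, the last with an adjusted p of 0.00557. Its paralog pora was the redox partner that fell at 250 ng/mL (-0.26 ± 0.08, adjusted p = 0.0449). At 750 and 1295 ng/mL pora gave -0.17 ± 0.08 and 0.03 ± 0.08, which did not pass. The ferredoxin gene fdx1 rose at 1295 ng/mL by 0.25 ± 0.09. Of 45 xenobiotic receptors and regulators, 6 rose at 250 ng/mL, 2 rose at 750 ng/mL, and 5 rose and 5 fell at 1295 ng/mL. The 13.3% that rose at 250 ng/mL was above the share of all genes, the 4.44% at 750 ng/mL near it, and the 11.1% in each direction at 1295 ng/mL below it. At 1295 ng/mL the transcription factor gene cebpb, active in the acute phase response, rose by 1.59 ± 0.11, cebpa by 0.67 ± 0.13 and nr0b2a, which encodes the repressor Shp, by 0.81 ± 0.15. The levels of nr1i2, the pregnane X receptor gene, were 21 ± 1.01, 22.7 ± 1.63, 20.4 ± 5.34 and 20.7 ± 0.765 CPM, and none of its comparisons with the control passed. Of the aryl hydrocarbon receptor genes, ahr1b fell at 1295 ng/mL (-0.70 ± 0.19, adjusted p = 0.00868). Ahr1a and ahr2 passed in no comparison with the control. These receptor genes were chosen after their values were seen, and the activity of the receptors was not measured.

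Among 67 transferases that conjugate the products of P450 reactions, 12 rose and 4 fell at 250 ng/mL, 14 rose and 2 fell at 750 ng/mL, and 16 rose and 12 fell at 1295 ng/mL. The shares that rose at the lower doses, 17.9% and 20.9%, were above those of all genes given above, while the falls at the lower doses (5.97% and 2.99%) and both directions at 1295 ng/mL (23.9% and 17.9%) were near them. The sulfotransferase genes sult1st1 and sult2st1 gave -0.43 ± 0.10 and -0.49 ± 0.09 at 250 ng/mL and 0.61 ± 0.10 and 0.60 ± 0.09 at 1295 ng/mL, all called, and sult5a1 rose at 1295 ng/mL by 1.44 ± 0.17. Of 16 drug efflux transporters, 5 rose at 250 ng/mL, 2 rose at 750 ng/mL, and 2 rose and 4 fell at 1295 ng/mL. The rises at the lower doses, 31.2% and 12.5% of the list, were above the shares of all genes. At 1295 ng/mL 12.5% rose, below the 18.8% of all genes, and 25% fell, near the 22.2%. In a list of 16 these shares rest on few genes. At 1295 ng/mL abcc5 gave -1.09 ± 0.15, abcb5 0.48 ± 0.14 and the bile salt pump gene abcb11a -0.86 ± 0.21. In the other P450 families, 5 of 27 tested genes rose at 250 ng/mL, 3 rose and 1 fell at 750 ng/mL, and 5 rose and 3 fell at 1295 ng/mL. The rises were 18.5% and 11.1% at the lower doses, above the shares of all genes, and at 1295 ng/mL 18.5% rose, near the share of all genes, and 11.1% fell, below it. Cyp7a1, the rate-limiting enzyme of bile acid synthesis, gave 1.18 ± 0.16, 1.14 ± 0.16 and -0.90 ± 0.17, all called. Cyp8b1, which directs that pathway to cholic acid, fell at 1295 ng/mL (log2 -0.59 ± 0.11, adjusted p = 0.00061), and cyp24a1, which breaks down vitamin D, rose by 0.79 ± 0.18, 1.21 ± 0.18 and 0.89 ± 0.18.

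**Figure D5:**
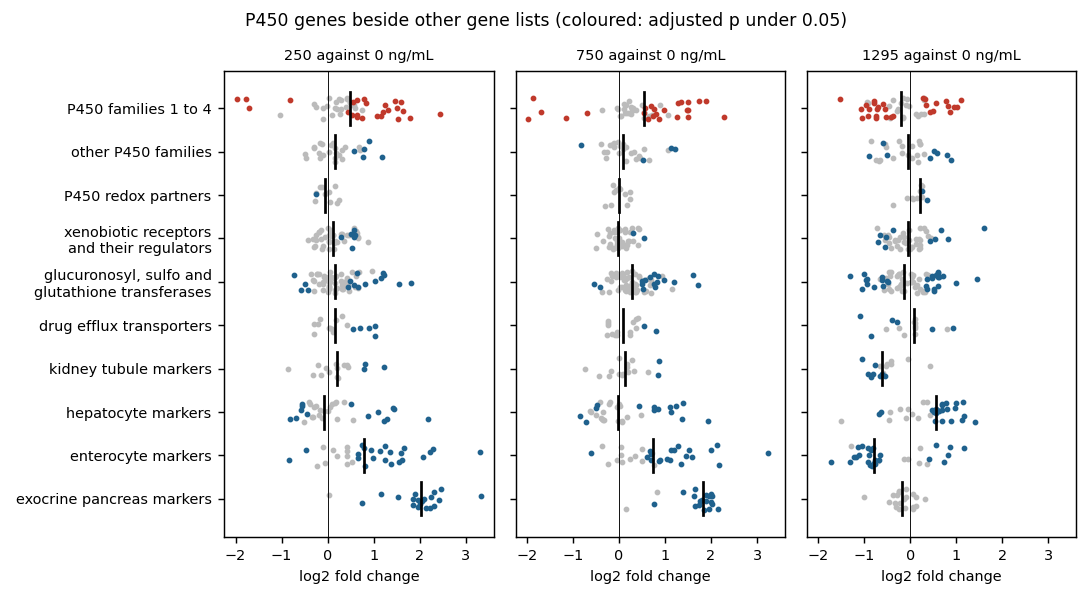
Log2 fold changes at 250, 750 and 1295 ng/mL against 0 ng/mL (panels) of the tested genes of each list; each point is a gene, coloured where its adjusted p was under 0.05, and black lines are medians. The P450 median lies at 0.49, 0.54 and -0.20, that of the enterocyte markers at 0.79, 0.73 and -0.78, and that of the exocrine pancreas markers at 2.03, 1.82 and -0.18.

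Genes with levels most like those of cyp3a65 over the 12 libraries were looked up among 15831 genes with a mean of at least 5 CPM. The most alike by Pearson's r of log2(CPM + 1) were hpda (0.993), which encodes an enzyme of tyrosine breakdown and is on the hepatocyte list, si:ch211-214p16.3 (0.992), calcoco1b (0.99), clca1 (0.99) and scpp1 (0.989). For the summed cyp2aa genes they were lipf (0.989), f2 (0.989), the gene of the liver-made clotting factor prothrombin, gar1 (0.986), arpc1b (0.986) and qsox1 (0.984). F2 is on the hepatocyte list too, and it ran opposite to hpda. With rising dose hpda averaged 29.2, 62.4, 62.7 and 25 CPM, and f2 110, 74.6, 76.7 and 176 CPM. The medians of that list against the control were -0.08, -0.03 and 0.55, so hpda does not stand for it. Since the libraries fall into dose groups, these correlations describe a shared course over 4 doses, and no test was made.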

How the data were processed

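Messenger RNA was sequenced from 12 pools of 15 whole larvae, with RNA extracted by RNAiso Plus and libraries made with a stranded kit, per the labels' protocols. The authors used Trimmomatic, HISAT2 and HTSeq with build GRCz11, per the submitters' processing notes (versions, annotation and strand setting: not given in the sources used here). Each deposited value is a whole read count of a gene in a library, not normalized, and the 12 per-sample tables held the same counts as the table of the whole series. No library was a repeat of another of the same dose: chi-square over its degrees of freedom was 3.69 to 16.08 between replicates. Libraries of different doses were not compared in this way.

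Counts were analysed in R 4.3.3 with edgeR 4.0.16: filterByExpr on dose group, TMM factors, and 1 quasi-likelihood fit (glmQLFit, glmQLFTest) of all 12 libraries with dose as its single factor (8 residual degrees of freedom). Benjamini-Hochberg adjustment covered all 21581 tested genes. CPM used the TMM factors. Log2 fold changes used a prior count of 0.125, their SE is the log2 fold change over the square root of F, and replicates varied by 12.1% (square root of the common dispersion, 0.0146). The scripts were tested on simulated data. Alternatives were other scalings and filters, DESeq2 1.42.0, limma-voom (limma 3.58.1), only the compared groups, a replicate block, stricter thresholds and leaving out each library.

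Named genes were every cyp1 and cyp3 member, the 6 with the smallest p for any dose difference in each other group, the 10 largest called changes per direction and comparison among genes with a mean of at least 1 CPM, and 3 genes per list by p at 1295 ng/mL. Values in every library were given for up to 4 genes per group with a mean of at least 5 CPM. Other members were named to account for all 52. Pora, nr1i2 and the aryl hydrocarbon receptor genes were named outside these rules, after their values were seen. Members, lists and rules were chosen with earlier results of these data known, and the lists are from textbook knowledge. Gene order came from RefSeq on GRCz12tu, in which 49 members were matched and 3 were not, and it was used for names and neighbours only. Sequences were not used here.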

Additional observations from a re-analysis of the deposited data

How the results depend on the processing

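Single-library effects were small for the direct comparisons with 1295 ng/mL and larger for those with the control. Leaving out each library in turn gave 18 to 26 members called at 250 ng/mL (25 with all libraries), 19 to 26 at 750 ng/mL (24), 17 to 29 at 1295 ng/mL (29), 31 to 32 for 1295 against 250 ng/mL (32), 31 to 35 for 1295 against 750 ng/mL (34) and 0 for 750 against 250 ng/mL. Over all tested genes the same fits called 1069 to 3051, 631 to 1568, 6519 to 9607, 10855 to 12978, 9599 to 11452 and 0 to 1, in that order. Of the member calls, 18 of 25, 18 of 24, 14 of 29, 30 of 32 and 30 of 34 were kept without each library in turn. In every setting that tested the gene, other than the stricter thresholds, 18, 18, 10, 28 and 28 were kept. Cyp2k20 and cyp2x8 were not tested where at least 10 counts were asked of every library. An adjusted p under 0.01 left 16 calls at 250 ng/mL and 13 at 1295 ng/mL, and calls at that threshold were not counted over all tested genes. A fold change of at least 2 left 15, 14 and 5 members at the 3 doses, 12 higher and 3 lower, 10 and 4, and 2 and 3. Of all 21581 tested genes it left 409 higher and 41 lower, 314 and 35, and 311 and 1619, in the same order. Scaling by total counts gave 1401 genes higher and 8269 lower of all tested at 1295 ng/mL against the control, where TMM gave 4058 and 4790 and RLE 4510 and 4498. Of 6162 values of single genes under these alternatives, 5893 kept their side of the threshold, 62 newly passed and 207 no longer passed. These values include those of 750 against 250 ng/mL, where no member was called with all libraries, so a kept side says little there. None that was called in either fit changed sign. Changes of sign in values that neither fit called were not counted apart.

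Replicate numbers did not pair the samples: deviations of same-numbered libraries correlated from -0.393 to 0.223, with 5 of 18 over 0.1, and 4 of 12 libraries correlated best with their own number. With a replicate block the calls were 23, 26 and 28 at the 3 doses, 33 for 1295 against 250 ng/mL, 33 for 1295 against 750 ng/mL and 0 for 750 against 250 ng/mL. Over all tested genes the block fit called 1940, 1275, 8374, 12042, 10852 and 0, in the same order. In that fit cyp2ad6, cyp2k20 and cyp4v7 were not called at 250 ng/mL against the control (edgeR adjusted p = 0.0595, 0.0589 and 0.0574), nor cyp2ad6 and cyp2v1 at 1295 ng/mL (0.0612 and 0.0501), nor cyp2aa2 between 1295 and 750 ng/mL (0.0519). Cyp2aa4 was called at 250 ng/mL, cyp2x9 and cyp3c4 at 750 ng/mL, and cyp2aa11 at 1295 ng/mL against the control and against 250 ng/mL. Counting error limits genes at a few CPM, among them cyp2k20 and cyp4f3. With 3 libraries per dose and no word on clutches, the p-values carry the spread of these pools alone.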
